A study of Mus musculus with 4 samples.

Results

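Blood clotting depends on proteins that the liver makes and secretes, and this account follows 10 of their genes in CD24+ liver cells of mice. They are the 3 fibrinogen chains Fga, Fgb and Fgg, the clotting factors F2, F5, F9, F10 and F12, and the plasma proteins Plg (plasminogen) and Hrg (histidine-rich glycoprotein). They were taken by symbol from the 21878 genes listed in the count tables, as a set of related function; the rule uses no measured value, but the set was chosen with earlier results of these data known. All 10 had a row in each library, and all 10 passed the filter on low counts that left 13428 genes to test. The cells came from C57BL/6 mice, labelled 6 to 8 weeks old, and were collected on magnetic beads (MACS) by the surface protein CD24. The labels call them both hepatocytes and liver progenitor cells. CCL4 mice were injected from the age of 8 weeks with carbon tetrachloride, which injures hepatocytes, 2 times a week over 6 weeks; each dose was 2 ml/kg, given in olive oil. The HACY group, also from the age of 8 weeks, was injected with Y-27632, A-83-01 and CHIR99021 together, 3 times a week over 6 weeks. Y-27632 is a kinase inhibitor, A-83-01 inhibits TGF-beta type I receptors and CHIR99021 inhibits glycogen synthase kinase 3. The labels give no dose for the cocktail and leave unclear whether HACY mice also had carbon tetrachloride. Each group had 2 libraries and there was no untreated group, so every difference below is HACY relative to CCL4 and cannot be assigned to either treatment.

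Fibrinogen is a plasma protein built from paired alpha, beta and gamma chains, and thrombin cuts it to fibrin, the mesh of a clot. Hepatocytes secrete it, and in the acute phase response interleukin 6 signalling raises the transcription of all of its chain genes. Thrombin itself arises from prothrombin (F2), cut by activated factor X (F10) with factor V (F5) as its cofactor. Factor IX (F9) activates factor X, and factor XII (F12) starts the contact pathway upstream of both. Prothrombin and factors IX and X need a vitamin K-dependent modification to bind membranes. Plasminogen becomes plasmin, which dissolves fibrin, and histidine-rich glycoprotein binds plasminogen, fibrinogen and heparin.

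The sequences before the start sites of the fibrinogen genes are shown because these 3 genes differed together, with those of Hrg, which had the fold change nearest to theirs, and F10, which did not pass the test. They come from the RefSeq promoter windows of GRCm38.p6, 250 bases before to 50 bases after the start, which were found for 9 of the 10 genes; no window was found for Plg. Only bases before the first annotated transcript are printed, 5′ to 3′ on the strand of the gene. Capitals mark matches, on either strand, to TTGCNNAA (C/EBP), CTGGGAA (the interleukin 6 response element) or TATAAA (the TATA box), and no marked match overlaps another.
Fga, chr3:83025903-83026075, plus strand: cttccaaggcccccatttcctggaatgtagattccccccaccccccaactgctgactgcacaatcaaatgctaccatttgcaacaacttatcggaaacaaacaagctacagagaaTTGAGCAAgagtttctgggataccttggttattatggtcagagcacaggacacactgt
Fgb, chr3:83049864-83050113, minus strand: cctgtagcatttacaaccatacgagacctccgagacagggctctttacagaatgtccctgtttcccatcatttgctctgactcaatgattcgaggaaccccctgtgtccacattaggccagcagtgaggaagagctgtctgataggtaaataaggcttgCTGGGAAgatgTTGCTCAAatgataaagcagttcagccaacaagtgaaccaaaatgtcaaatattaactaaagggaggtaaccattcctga
Fgg, chr3:83007474-83007723, plus strand: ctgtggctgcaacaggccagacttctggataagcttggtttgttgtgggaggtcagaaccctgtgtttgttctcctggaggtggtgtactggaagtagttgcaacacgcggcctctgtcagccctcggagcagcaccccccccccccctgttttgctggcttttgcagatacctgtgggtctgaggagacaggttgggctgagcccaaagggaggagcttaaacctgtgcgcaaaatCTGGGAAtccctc
Hrg, chr16:22950822-22951071, plus strand: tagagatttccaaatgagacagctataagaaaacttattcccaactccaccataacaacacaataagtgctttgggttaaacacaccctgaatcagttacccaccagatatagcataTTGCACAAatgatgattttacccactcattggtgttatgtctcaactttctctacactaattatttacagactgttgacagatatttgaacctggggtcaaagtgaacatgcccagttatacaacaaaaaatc
F10, chr8:13037058-13037307, plus strand: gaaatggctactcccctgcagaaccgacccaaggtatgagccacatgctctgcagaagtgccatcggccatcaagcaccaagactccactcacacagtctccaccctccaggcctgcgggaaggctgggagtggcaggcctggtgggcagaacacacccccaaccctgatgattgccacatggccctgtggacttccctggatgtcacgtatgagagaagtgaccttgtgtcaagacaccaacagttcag

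Fgb held 2 of these matches, to the interleukin 6 element and C/EBP, 91 and 80 bases before its start. Fga held a C/EBP match 135 bases before the start that RefSeq gives. The last 77 bases before that start are left out above because a GENCODE transcript of Fga already covers them. Fgg held the interleukin 6 element 13 bases before its start. Hrg held a C/EBP match 133 bases before its start and TATAAA at the start itself, outside the printed stretch. F9 held the interleukin 6 element and C/EBP, 82 and 24 bases before its start. F2, F5, F10 and F12 had no match in the window. In all, C/EBP matched 4 of the 9 windows, against 10.8% of 32851 RefSeq windows. The interleukin 6 element matched 3 of 9 against 11.1%, and TATAAA 1 of 9 against 13.6%. A match describes letters only and is not a measured binding site.

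The 4 count tables summed to between 18467299 and 19314219 counts, so depth was nearly equal between groups. Nothing in the labels ties the replicates to separate animals. The spread behind each p-value is therefore that of these libraries and may be technical. Markers of hepatocytes were present in every library. By edgeR at an adjusted p below 0.05, 8 of 10 were higher in HACY and none was lower, against 8.19% and 3.54% of all tested genes. Their summed levels were 31409 and 40258 CPM in HACY and 11194 and 10173 in CCL4. CPM are counts scaled to library size, here with edgeR's TMM factors. Markers of macrophages moved the same way, with 9 of 10 higher and sums of 2883 and 2069.8 CPM against 836 and 1207. Of 8 endothelial markers, 4 were higher and 1 lower, with sums of 1193 to 1602 CPM in HACY and 523 to 872 in CCL4. No cholangiocyte or stellate cell marker was called by edgeR, of 7 tested in each list; 2 and 0 had an unadjusted p below 0.05, and DESeq2 called 1 and 0. Markers of neutrophils, of which CD24 is also a surface protein, summed to 54.4 and 51.4 CPM in HACY and to 44.1 and 264 in CCL4, so CCL4 replicate 2 stood apart. S100a9, a granulocyte protein, had 112 CPM there and 3.60 to 11.8 in the other libraries. S100a8 (51.8 CPM there), Csf3r, Cxcr2, Retnlg, Mmp8 and Ly6g were also highest in CCL4 replicate 2, but Ngp, Ltf and Camp were not. Ngp had 6.65 CPM and Ltf 1.97 there, against 6.75 and 4.03 in HACY replicate 2, and Camp had 0 counts in CCL4 replicate 2. Of 8 neutrophil markers tested, 1 was lower (Cxcr2, edgeR adjusted p = 0.0349) and none higher. At an unadjusted edgeR p below 0.05, 4 were lower and 0 higher. DESeq2 called 2 of them lower and limma-voom 0. B cell markers summed to 32.2 to 53.6 CPM over the 4 libraries, with 1 of 6 higher (Cd22). Platelet markers summed to 73.2 to 162 CPM over the 4 libraries. Most of this was Pf4, with 148 and 98.3 CPM in HACY and 54.1 and 87.0 in CCL4. None of the 4 tested was called by edgeR. At an unadjusted p below 0.05, 1 was higher (Pf4, log2 0.81) and 2 were lower (Ppbp, -1.59, and Itga2b, -0.90). DESeq2 called 1 in each direction. Gp9 and Gp6, which define platelets and their precursors, had at most 3 counts in each library. In bulk RNA, fewer cells of a type and less RNA per cell cannot be told apart, and the part of the cell mix in the results below was not tested.

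Of the 10 genes, 9 were higher in HACY by edgeR at an adjusted p below 0.05 and none was lower, where 8.19% of all tested genes were called higher and 3.54% lower (11.7% in either direction). No member was lower at an unadjusted p below 0.05 either, and DESeq2 and limma-voom each also called 9 higher and 0 lower. The lowest HACY library lay above the highest CCL4 library for all 10, which was so for 30.7% of all tested genes; the opposite order held for 30.1%. The median log2 fold change was 1.61 over the 10 genes and -0.01 over all tested genes. It was 2.11 over the 3 fibrinogen chains and 1.31 over the other 7 genes. Being at least 4-fold higher and called was true of 1.53% of tested genes and of 4 of the 10: the 3 fibrinogen chains and Hrg.

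The fibrinogen genes stand side by side within 42.1 kb of chromosome 3 (83007724 to 83049863, GRCm38). Fga, the alpha chain (83026076 to 83033627, plus strand), had 438 and 414 CPM in the HACY libraries and 72.5 and 79.5 in the CCL4 libraries. The mean was 426 ± 17.6 CPM in HACY and 76.0 ± 4.91 in CCL4 (SD, n = 2). This 5.61-fold rise, 2.49 on the log2 scale (SE 0.13), had an edgeR adjusted p of 9.08e-04. Both HACY libraries were far above both CCL4 libraries, and the libraries within each group lay close together.

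Fgb, the beta chain (83040141 to 83049863, minus strand), was the most abundant of the 10. It had 1054 and 1162 CPM in HACY and 249 and 263 in CCL4. Group means were 1108 ± 76.3 and 256 ± 9.88 CPM (SD, n = 2), a rise of 4.32-fold (log2 2.11, SE 0.12, edgeR adjusted p = 9.25e-04). Fgg, the gamma chain (83007724 to 83015049, plus strand), had 337 and 349.5 CPM in HACY and 94.0 and 75.6 in CCL4. Group means were 343 ± 9.04 and 84.8 ± 13 CPM (SD, n = 2), a rise of 4.05-fold (log2 2.02, SE 0.14, edgeR adjusted p = 9.52e-04). Groups were well apart for both genes. The antisense transcript Gm30097 overlaps Fgg and was not analysed here, and whether the counting used strand is not given in the sources used here. Together the 3 chains took 0.175% and 0.179% of all counts in HACY and 0.0445% and 0.0440% in CCL4. The share was 4.00-fold higher in HACY (p = 0.333 by a two-sided exact permutation test, the lowest p within reach of 2 libraries a group).

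**Figure D1:**
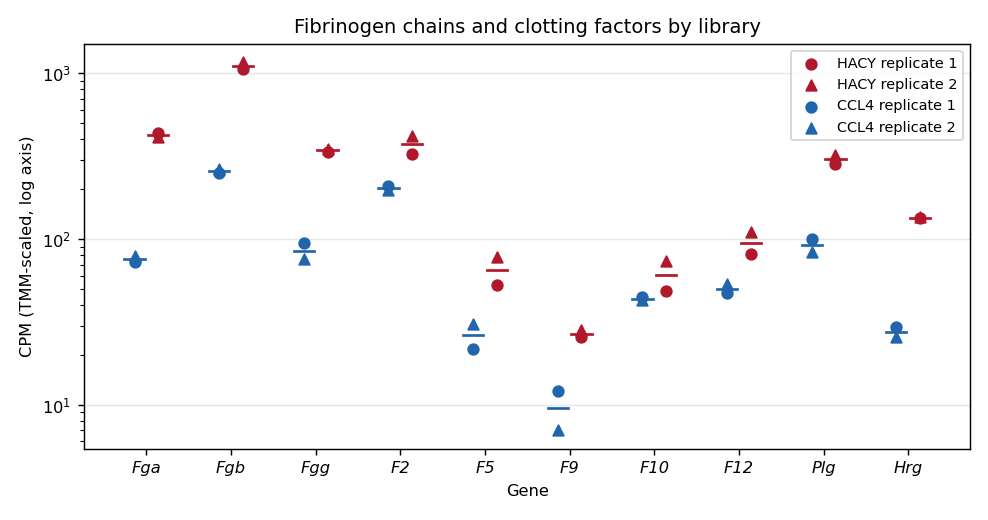
Level of each of the 10 genes (x axis) in CPM, TMM-scaled, on a log axis (y), with 1 point per library, coloured by group and shaped by replicate number, and a short line at each group mean. HACY points lie above CCL4 points for every gene; the gap is widest for Fga (438 and 414 against 72.5 and 79.5) and narrowest for F10 (48.6 and 73.2 against 44.8 and 42.6).

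Because the chains are assembled in equal numbers, their proportions were compared per length, on the authors' FPKM. Fgb made up 64.8% and 67.3% of the summed FPKM of the 3 chains in HACY and 64.6% and 68.2% in CCL4, so its groups overlapped. Fgg made up 21.7% and 20.7% in HACY and 25.6% and 20.8% in CCL4, and its groups overlapped too. Fga made up 13.5% and 12% in HACY and 9.71% and 11% in CCL4, so both HACY values were higher (p = 0.333 by the same exact test). In counts, Fga stood at 0.416 and 0.356 of Fgb in HACY and at 0.291 and 0.302 in CCL4. On FPKM the alpha chain was the scarcest of the 3 transcripts in every library. In counts Fga stood at 1.30 and 1.18 of Fgg in HACY and at 0.771 and 1.05 in CCL4. That order of Fga and Fgg thus rests on the scaling to length. Its larger fold change than Fgb's and Fgg's is a description of 4 libraries; no model of the ratio was fitted.

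The vitamin K-dependent factors had smaller fold changes than fibrinogen, from 0.48 to 1.49 on the log2 scale. F2, which encodes prothrombin (chromosome 2, 91625320 to 91636414), had 327 and 418 CPM in HACY and 207 and 197 in CCL4. It rose 1.84-fold (202 ± 7.74 to 372 ± 64.1 CPM, SD, n = 2; log2 0.88, SE 0.15, edgeR adjusted p = 0.0125). HACY replicate 2 was the higher of its group, and without it the log2 fold change was 0.70 and the call was lost (edgeR adjusted p = 0.0630). F9, the gene of the factor absent in haemophilia B (chromosome X, 59999464 to 60030759), was one of the scarcest. It had 25.6 and 28.2 CPM in HACY and 12.1 and 7.0 in CCL4, a rise of 2.82-fold (log2 1.49, SE 0.28, edgeR adjusted p = 0.0181). Its groups did not overlap although the CCL4 libraries differed from each other, and its log2 fold change lay between 1.15 and 1.94 with any 1 library left out.

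F10, at the junction of the intrinsic and extrinsic pathways (chromosome 8, 13037308 to 13056676), was the gene that did not pass. It had 48.6 and 73.2 CPM in HACY and 44.8 and 42.6 in CCL4 (means 60.9 ± 17.4 and 43.7 ± 1.60, SD, n = 2). On the log2 scale HACY exceeded CCL4 by 0.48 (SE 0.20), with an edgeR adjusted p of 0.168. HACY replicate 1 was just above the CCL4 libraries and HACY replicate 2 stood apart from all 3. Without HACY replicate 2 the log2 fold change was 0.15 (edgeR adjusted p = 0.832), and without HACY replicate 1 it was 0.74 (0.108).

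F5 encodes the cofactor of factor Xa and belongs to chromosome 1 (164151838 to 164220277). It had 52.6 and 77.4 CPM in HACY and 21.7 and 30.8 in CCL4, and rose 2.48-fold (log2 1.31, SE 0.24, edgeR adjusted p = 0.0186). The replicates of each group were wide apart but the groups were not mixed. F12, the contact factor (chromosome 13, 55417958 to 55426793), had 80.7 and 109 CPM in HACY and 47.0 and 53.4 in CCL4, and rose 1.89-fold (log2 0.92, SE 0.18, edgeR adjusted p = 0.0202). Both calls rested on HACY replicate 2, the higher library for both genes. Without it the log2 fold changes were 1.00 for F5 and 0.69 for F12 (edgeR adjusted p = 0.0557 and 0.125), and F12 was also not called without CCL4 replicate 1 (0.83, adjusted p = 0.0524).

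Plg and Hrg were nearer to fibrinogen. Plg, the plasmin precursor (chromosome 17, 12378608 to 12419385), had 285 and 322 CPM in HACY and 99.4 and 83.5 in CCL4. It rose 3.32-fold (log2 1.73, SE 0.14, edgeR adjusted p = 0.00153). Its end overlaps Slc22a3 on the other strand, which had at most 3 counts in any library. Hrg, the gene of a plasma protein that binds both fibrinogen and plasminogen (chromosome 16, 22951072 to 22961656), had 133 and 136 CPM in HACY and 29.6 and 25.6 in CCL4. It rose 4.87-fold (27.6 ± 2.83 to 135 ± 2.16 CPM, SD, n = 2; log2 2.28, SE 0.14, edgeR adjusted p = 9.25e-04). Replicates of both genes were close, with HACY and CCL4 far apart.

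The spread between the HACY replicates differed from gene to gene. The level in replicate 2 was 1.5 times that in replicate 1 for F10, 1.47 for F5, 1.36 for F12 and 1.28 for F2. For Fga, Fgb, Fgg and Hrg it was 0.943, 1.10, 1.04 and 1.02 times. Outside fibrinogen the 7 genes together took 0.0910% and 0.108% of counts in HACY and 0.0495% and 0.0462% in CCL4, 2.08-fold more in HACY (p = 0.333 by the exact permutation test). With any 1 library left out, Fga, Fgb, Fgg, F9, Plg and Hrg were called each time; the genes that lost their call were F2, F5 and F12. Such a fit leaves 1 library in a group, which is assumed to vary like the pair of the other group, so kept and lost calls are limited as a check.

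**Figure D2:**
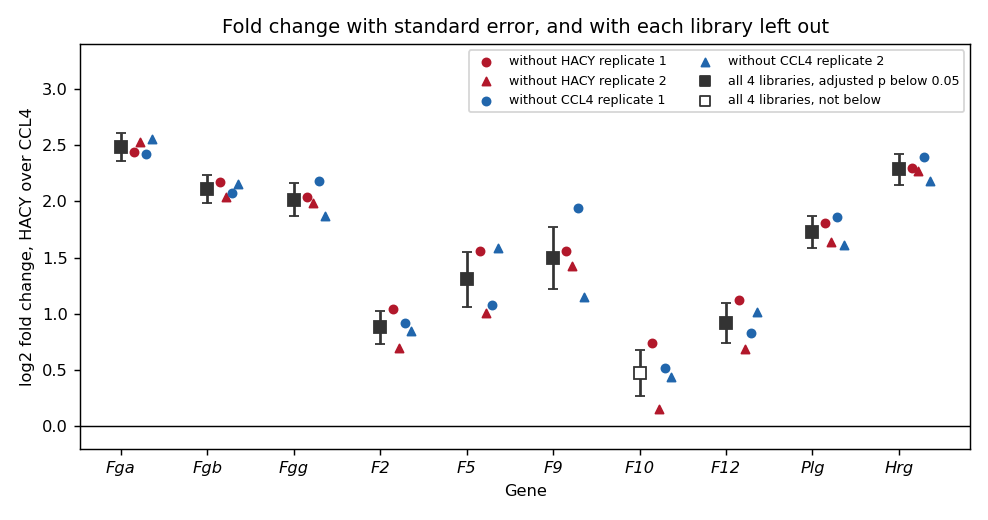
The y axis is the log2 fold change of HACY over CCL4 and the x axis the gene; squares with bars are the estimate from all 4 libraries with its standard error, filled where the edgeR adjusted p was below 0.05, and small coloured points are the estimates with 1 library left out. Points for Fga, Fgb, Fgg and Hrg stay near their squares, while F10 (0.48) ranges from 0.15 to 0.74 as 1 or the other HACY library is left out.

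Levels of different genes can be compared only per length, on the deposited FPKM. In HACY the order was Fgb (375 ± 16.7 FPKM), Fgg (120.4 ± 1.92), F2 (106 ± 16.7), Fga (72.2 ± 4.44), Plg (52.9 ± 4.02), F12 (36.5 ± 6.99), Hrg (35.1 ± 0.111), F10 (15.6 ± 4.12), F9 (9.56 ± 0.155) and F5 (5.04 ± 1.18; each SD, n = 2). In CCL4 it was Fgb (95.3 ± 5.93 FPKM), F2 (61.3 ± 2.59), Fgg (33.2 ± 4.13), F12 (20.8 ± 1.87), Plg (17.9 ± 1.60), Fga (14.9 ± 1.69), F10 (11.5 ± 0.256), Hrg (8.18 ± 0.247), F9 (3.72 ± 1.25) and F5 (2.22 ± 0.601). Fgb led and F9 and F5 closed both orders. Fga moved from the sixth place in CCL4 to the fourth in HACY, and F12 from the fourth to the sixth. In HACY, Fgg and F2, and F12 and Hrg, differed by less than the larger SD of the pair; no other pair of neighbours in either order did.

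Albumin (Alb) is the main secreted product of hepatocytes, and it was 4.36-fold higher in HACY (log2 2.12, SE 0.19, edgeR adjusted p = 0.00173). Measured against Alb in the same library, no member had both HACY values above both CCL4 values. Fgb stood at 43.9 and 38.3 counts per 1000 Alb counts in HACY and at 35.8 and 47.9 in CCL4. Fga (18.3 and 13.6 against 10.4 and 14.5), Fgg (14 and 11.5 against 13.5 and 13.8) and Hrg (5.54 and 4.48 against 4.25 and 4.66) overlapped likewise; the mean ratios of Fga and Hrg were higher in HACY (15.9 against 12.4, and 5.01 against 4.46). The other 6 genes were lower per Alb count in both HACY libraries. Alb rose by more than the typical tested gene, as the median log2 fold change of all tested genes was -0.01. A gene that rose less than Alb tends to fall in this ratio. The log2 fold change of Fgb (2.11), just under that of Alb, was above that of 98.6% of tested genes. Nearly all tested genes thus rose less than Alb, and a lower ratio does not set these 6 genes apart. How many of all tested genes had groups that did not overlap in this ratio was not counted. F10 had 2.02 and 2.41 per 1000 Alb counts in HACY and 6.43 and 7.75 in CCL4, and its mean ratio was 3.20-fold higher in CCL4. For F2 the values were 13.6 and 13.8 against 29.8 and 35.7, and for F12 they were 3.36 and 3.61 against 6.75 and 9.71. The ratio was higher in CCL4 by 2.39-fold for F2, 2.36-fold for F12, 1.84-fold for F5, 1.51-fold for F9 and 1.31-fold for Plg. For all 6 the exact permutation test gave p = 0.333, the lowest it can give.

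**Figure D3:**
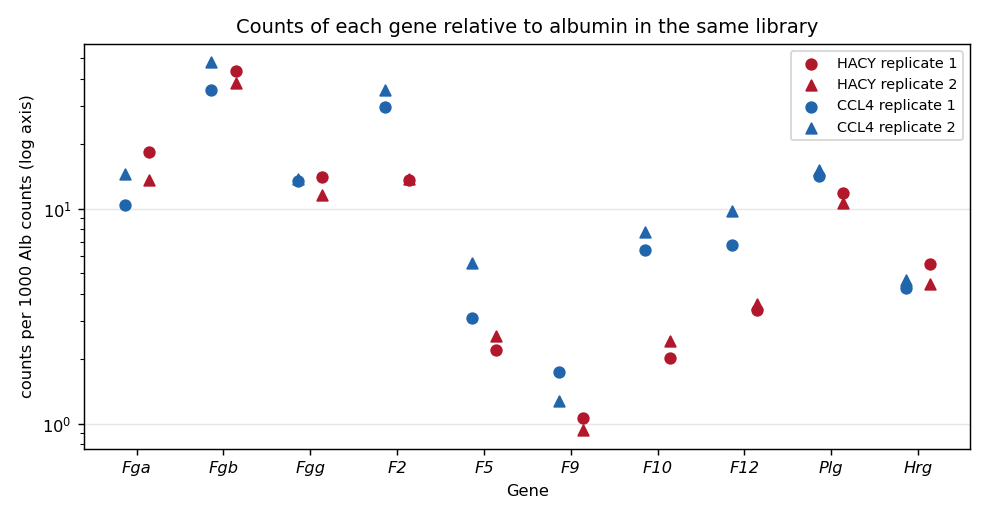
Counts of each gene per 1000 Alb counts of the same library (y, log axis), 1 point per library. For Fga, Fgb, Fgg and Hrg the points of the groups mix, and for F2, F5, F9, F10, F12 and Plg both HACY points lie below both CCL4 points (F10: 2.02 and 2.41 against 6.43 and 7.75).

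Against the geometric mean of 10 hepatocyte markers in the same library, the genes split in another way. Fga, Hrg, Fgb and Fgg were higher in HACY by 0.87, 0.67, 0.50 and 0.41 on the log2 scale, with groups that did not overlap. F10, F2 and F12 were lower, at -1.17, -0.74 and -0.71, again without overlap. F5 (-0.31), F9 (-0.07) and Plg (0.12) overlapped. Dividing by a common reference shifts all genes of a library alike, so the order of the genes is that of their fold changes. This reference is a mean over the 10 markers. Their median log2 fold change, which is not the shift of that mean, was 1.83, against -0.01 for all tested genes. F9, which was slightly lower against the reference, had a log2 fold change (1.49) above that of 96.5% of tested genes. Most tested genes thus fall against the markers, as F10, F2 and F12 did. The share of all tested genes whose groups did not overlap in this measure was not counted.

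Other clotting factors were taken from a list of 10 genes, all of them tested. Of these, 5 were higher in HACY and none was lower (8.19% and 3.54% of all tested genes; none was lower at an unadjusted p below 0.05, by DESeq2 or by limma-voom), with a median log2 fold change of 1.18. Kng1, the gene of kininogen, which carries bradykinin and takes part in contact activation, had 473 and 500.4 CPM in HACY and 175 and 125 in CCL4. It rose with a log2 fold change of 1.70 (SE 0.17, edgeR adjusted p = 0.00246). Its paralog Kng2 rose by 1.03 (adjusted p = 0.0153), and reads shared by these near copies are uncertain. F11, factor XI, rose from 7.47 ± 0.594 to 18.9 ± 1.07 CPM (SD, n = 2), and F13b, the carrier subunit of the fibrin-crosslinking factor XIII, from 6.54 ± 2.48 to 17.7 ± 2.61. F3, tissue factor, which triggers clotting from the cell surface, had 164 and 170.0 CPM in HACY and 19.2 and 47.9 in CCL4 (log2 2.31, SE 0.37, edgeR adjusted p = 0.0117).

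The 5 factors that were not called were F7, F8, Vwf, F13a1 and Klkb1. F7, factor VII, had 42.5 and 37.5 CPM in HACY and 40.9 and 42.0 in CCL4 (log2 -0.05, SE 0.15, edgeR adjusted p = 0.858), and Klkb1, prekallikrein, was at -0.15 (0.825). F8, made by endothelial cells, was at 0.88 (edgeR adjusted p = 0.0722). F13a1 was at -1.06 (0.321), with 17.8 CPM in CCL4 replicate 2 and 3.69 to 6.12 in the other libraries. Without CCL4 replicate 1 it was called lower, at -1.78 (edgeR adjusted p = 0.0186); leaving out CCL4 replicate 2 instead gave 0.48 (0.370). CCL4 replicate 2 is the library with the high sum of neutrophil markers, whose part was not tested. Macrophages can express F13a1 and F3, and the macrophage markers named above were higher in HACY; their part in F3 was not tested. The call of F3 was lost without HACY replicate 1 or 2 (edgeR adjusted p = 0.197 and 0.193), and those of F11, F13b and Kng2 without HACY replicate 2 (0.0519, 0.10 and 0.0703). Without HACY replicate 2 only 1 of the 10 was still called higher.

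Anticoagulant proteins restrain the cascade. Of 11 of their genes listed, 10 were tested. By edgeR 5 rose and none fell, against 8.19% and 3.54% of all tested genes. Nor was any lower at an unadjusted p below 0.05 or by DESeq2 or limma-voom (median log2 fold change 0.86). Serpinc1, antithrombin, which inactivates thrombin and factor Xa, had 255 and 316 CPM in HACY and 83.4 and 87.3 in CCL4 (log2 1.74, SE 0.14, edgeR adjusted p = 0.00153). Serpina10, the protein Z-dependent inhibitor of factor Xa, rose by 2.09 on the log2 scale (SE 0.27, adjusted p = 0.00461), and its cofactor Proz by 1.63 (SE 0.23, 0.00719). Pros1, protein S, rose by 0.97 (adjusted p = 0.00982) and Tfpi, the tissue factor pathway inhibitor, by 0.87 (0.0417). Thbd, thrombomodulin, at 0.65, and Proc, protein C, at 0.85, did not pass (edgeR adjusted p = 0.0503 and 0.0530). The call of Tfpi was lost by upper-quartile scaling (edgeR adjusted p = 0.0559), by library size alone (0.0597), with limma on log2(FPKM + 1) (0.141) or log2(FPKM + 0.1) (0.141), and when the first replicate of either group was left out (0.272 for HACY, 0.0850 for CCL4, by edgeR). This list had 8 genes called higher when CCL4 replicate 2 was left out.

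Of 11 genes of fibrinolysis, the breakdown of fibrin, 6 rose and none fell by edgeR (8.19% and 3.54% of all tested genes). The list had 0 lower at an unadjusted p below 0.05, by DESeq2 and by limma-voom (median log2 fold change 0.73). Inhibitors of plasmin action were among the 6 that rose. Serpinf2, alpha-2-antiplasmin, had 98.4 and 149 CPM in HACY and 29.8 and 48.2 in CCL4 (log2 1.67, SE 0.28, edgeR adjusted p = 0.0130). Cpb2, the carboxypeptidase that protects fibrin from plasmin, rose by 0.73 (edgeR adjusted p = 0.0269). Plau, the urokinase activator of plasminogen, rose by 0.97 (edgeR adjusted p = 0.0183). Anxa2 and S100a10, whose products form a plasminogen receptor on cells, rose by 0.77 and 0.89 (0.0300 and 0.0112). Plat, the tissue activator, was at 0.39 (0.503), with 51.7 and 92.7 CPM in HACY and 38.6 and 71.8 in CCL4. Without HACY replicate 2 the list had 3 calls, with Cpb2, S100a10 and Anxa2 lost (edgeR adjusted p = 0.209, 0.0561 and 0.146). Without HACY replicate 1 the list had 4 calls, and Plau was among those lost (0.141).

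No call was made among 8 genes of the vitamin K cycle and of processing and export. Among these are Ggcx, the carboxylase itself, the epoxide reductases Vkorc1 and Vkorc1l1, the quinone reductase Nqo1, the protease Furin, and Lman1 and Mcfd2, which carry factors V and VIII out of the endoplasmic reticulum. The count was 0 by edgeR, DESeq2 and limma-voom, where edgeR called 11.7% of all tested genes in either direction. In the higher direction, 1 gene had an unadjusted edgeR p below 0.05. Their log2 fold changes ran from -0.16 to 0.44, with a median of 0.15. Ggcx had 11 and 9.70 CPM in HACY and 8.55 and 13.1 in CCL4. Mcfd2 stood at 0.36 (edgeR adjusted p = 0.0950) and Furin at 0.44 (0.183). Without CCL4 replicate 2, 2 of the 8 were called higher.

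Fibrinogen-like proteins and the receptors of fibrinogen and thrombin gave 3 higher and 0 lower of 10 tested by edgeR, with a median of 0.60. Over all tested genes the shares were 8.19% and 3.54%. At an unadjusted p below 0.05, 1 gene was lower, and DESeq2 and limma-voom called 0 lower. Fgl1, a fibrinogen-like protein secreted by hepatocytes, had 117 and 99.9 CPM in HACY and 56.8 and 47.9 in CCL4 (log2 1.05, SE 0.15, edgeR adjusted p = 0.00719). Fgl2, a prothrombinase of macrophages and endothelium, rose by 1.89 (SE 0.31, adjusted p = 0.0120). Itgb2, the beta 2 integrin of leukocytes, which with Itgam forms a fibrinogen receptor, rose by 1.24 (0.00973), and Itgam was at 1.17 (0.0824), with 234 and 185 CPM in HACY and 55.1 and 131 in CCL4. Without CCL4 replicate 2, which had the high sum of neutrophil markers, Itgam was at 1.92. The part of neutrophils was not tested. Both integrin genes are leukocyte genes, and macrophage markers summed to 2883 and 2069.8 CPM against 836 and 1207; their part was not tested. Itga2b, the platelet integrin, was at -0.90 (edgeR adjusted p = 0.0825), and the thrombin receptor F2r at -0.31 (0.329). DESeq2, and edgeR without CCL4 replicate 2, each called 5 of this list higher.

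Genes that act upstream of fibrinogen transcription, namely interleukin 6 signalling and the liver transcription factors, gave 0 higher and 4 lower of 16 tested by edgeR. The list median was -0.18, and 8.19% of all tested genes were called higher and 3.54% lower. At an unadjusted p below 0.05, 4 were higher and 6 lower. The 4 higher were the signalling genes Il6 (1.04), Il6ra (0.53), Il6st (0.76) and Stat3 (0.38), on the log2 scale. Of the other signalling genes, Jak1 was at 0.21 and Socs3 at -0.25. All 4 edgeR calls lower were transcription factors. DESeq2 called 1 higher and 4 lower, and limma-voom 0 and 3. Cebpa, a C/EBP factor of mature hepatocytes, had 38.9 and 32.5 CPM in HACY and 66.5 and 66.3 in CCL4. It fell with a log2 fold change of -0.90 (SE 0.15, edgeR adjusted p = 0.0130). Foxa2 and Foxa3, pioneer factors of liver genes, fell with -0.98 and -1.18 (adjusted p = 0.0185 and 0.0194). Cebpb, a C/EBP factor of the acute phase response, was called at -1.56 (0.0449), with 45.0 and 37.9 CPM in HACY and 69.3 and 176 in CCL4. The highest value was that of CCL4 replicate 2, whose neutrophil markers summed to 264 CPM against 44.1 to 54.4 in the other libraries; their part was not tested. Without that library the log2 fold change was -0.74 (edgeR adjusted p = 0.0204). Its call was lost by DESeq2 (adjusted p = 0.0756), limma-voom (0.0836) and when either HACY library was left out (0.415 and 0.440 by edgeR).

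Hnf4a had 78.3 and 143 CPM in HACY and 113 and 114 in CCL4 (log2 -0.04, edgeR adjusted p = 0.935). Stat3, the factor activated by interleukin 6, was at 0.38 (edgeR adjusted p = 0.0966), Il6st at 0.76 (0.0804) and Il6 at 1.04 (0.110), from 1.92 to 5.57 CPM. The fibrinogen genes were higher in libraries in which Cebpa, Foxa2 and Foxa3 were lower, which is a statement about levels of RNA alone. Cebpa was not called without HACY replicate 2 (-0.77, edgeR adjusted p = 0.10), nor Foxa2 and Foxa3 without HACY replicate 1 (0.113 and 0.134). The list had 1 call lower without HACY replicate 1, 2 without HACY replicate 2, and 3 calls higher without CCL4 replicate 2.

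**Figure D4:**
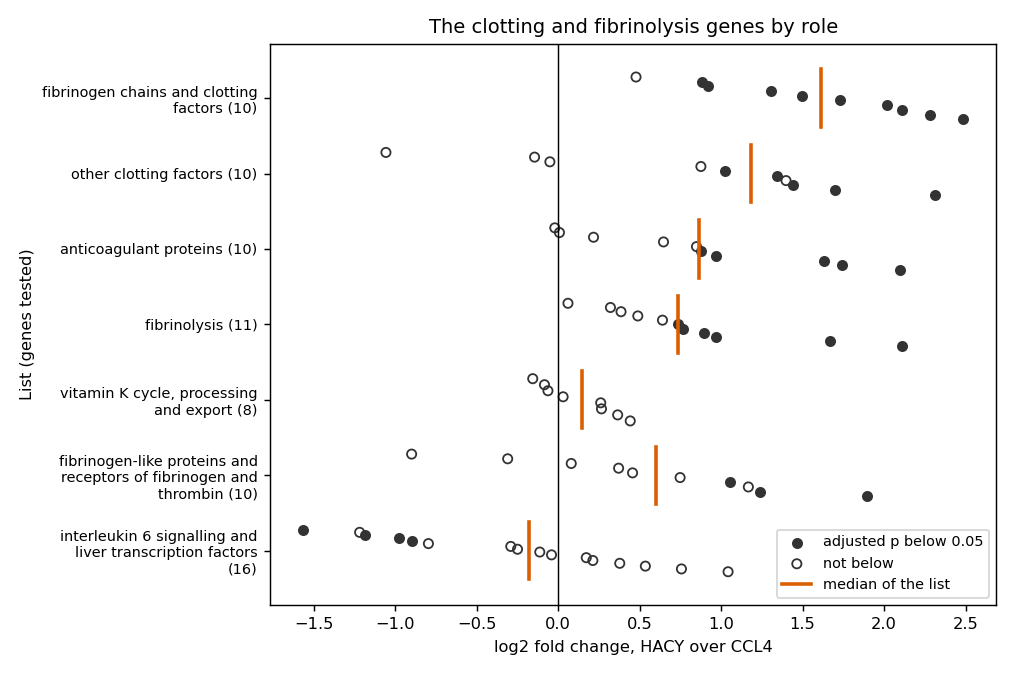
Each point is a tested gene, placed by its log2 fold change of HACY over CCL4 (x) in the row of its list (y); filled points had an edgeR adjusted p below 0.05 and the vertical tick is the median of the list. Medians fall from 1.61 for the 10 fibrinogen and clotting factor genes to 0.15 for the vitamin K cycle, processing and export, and to -0.18 for interleukin 6 signalling and liver transcription factors. That last list joins signalling genes, of which Il6, Il6ra, Il6st, Jak1 and Stat3 were above 0 and Socs3 below, with transcription factors, which hold all of its calls.

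Neighbours on the chromosome were compared for 3 places: the fibrinogen cluster, F10 and Hrg, of which the last pair was chosen after values were seen. Next to the fibrinogen genes, Plrg1, a splicing factor gene that begins 5.66 kb away, had 71.9 and 76.9 CPM in HACY and 95.7 and 93.8 in CCL4 (log2 -0.35, SE 0.12, edgeR adjusted p = 0.109). Rbm46, an RNA-binding protein gene of germ cells, had under 1.4 CPM in every library (log2 0.97, edgeR adjusted p = 0.239). The rise was thus called for the 3 fibrinogen genes and for no other tested gene that starts within 200 kb of them. Plrg1 and the scarce Rbm46 were the only such genes tested. Lrat, with at most 8 counts in any library, was not tested, and Dchs2 was not among the genes counted.

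F10 lies between F7, 1.5 kb away, and Proz, 4.24 kb away. F7 and F10 were not called, with log2 fold changes of -0.05 and 0.48, while Proz, which encodes a vitamin K-dependent protein, rose from 4.69 ± 0.0140 to 14.5 ± 0.393 CPM (SD, n = 2). Hrg lies in a group of liver-secreted proteins that share the cystatin fold. There Ahsg, fetuin A, rose with a log2 fold change of 2.27 (SE 0.16, edgeR adjusted p = 9.52e-04), Kng1 with 1.70 and Kng2 with 1.03. Fetub, fetuin B, rose with 1.00 (SE 0.13, edgeR adjusted p = 0.00452). The genes that flank this group, Tbccd1 (-0.44), Dnajb11 (0.31), Eif4a2 (-0.36) and Rfc4 (-0.64), were not called.

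**Figure D5:**
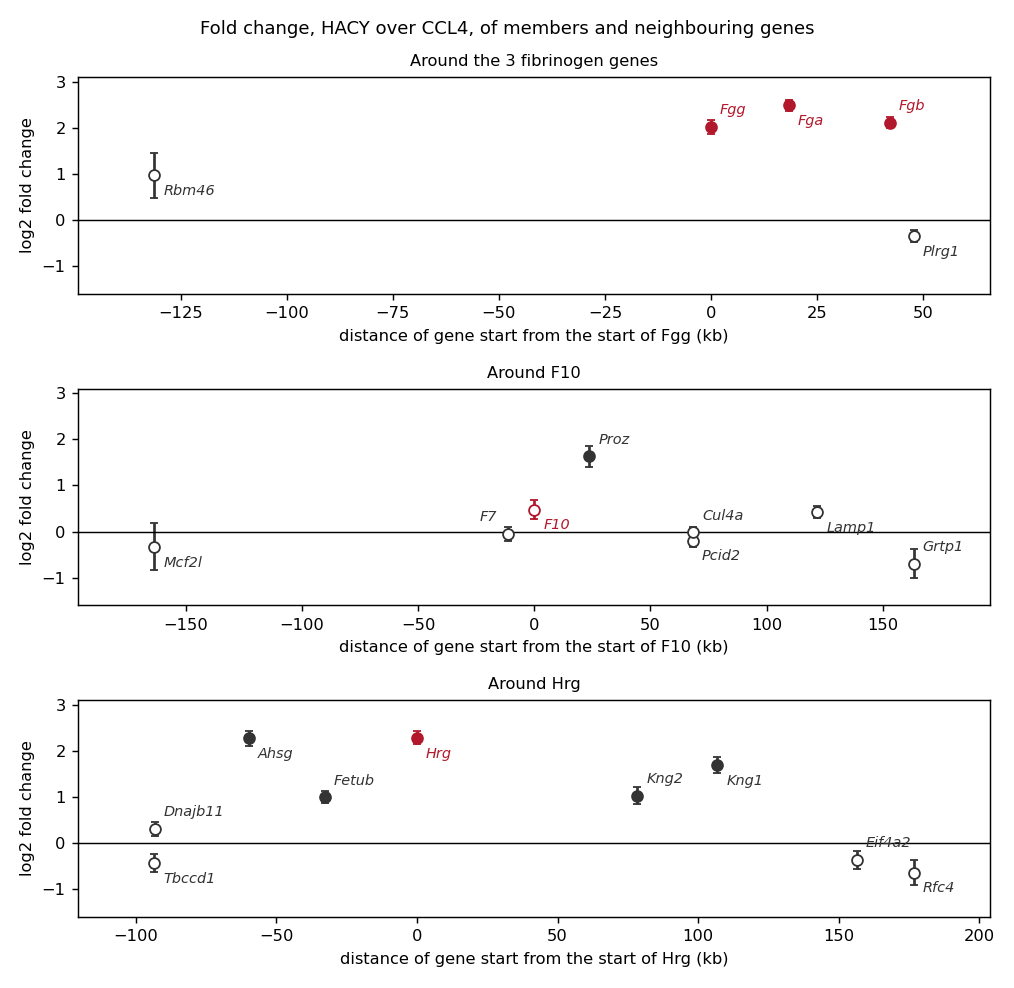
Log2 fold change of HACY over CCL4 with its standard error (y) against the distance of a gene's start from the start of Fgg, F10 or Hrg in kb (x), for members in colour and their tested neighbours in grey. Fgg, Fga and Fgb (2.02, 2.49 and 2.11) stand above Plrg1 (-0.35), Proz (1.63) stands above F7 (-0.05), and Hrg (2.28) stands with Ahsg (2.27).

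The genes whose profile over the 4 libraries was nearest to the mean of the fibrinogen chains were found by Euclidean distance of centred log2 CPM, among 12980 named genes. They were Cd72, a surface protein of B cells, at 0.131, Mug2, a murinoglobulin protease inhibitor, at 0.153, and Hamp, hepcidin, the iron hormone of hepatocytes, at 0.191. Next came Aadac, a liver esterase, at 0.192, Akr1c6, a steroid dehydrogenase, at 0.203, and Gvin1, an interferon-inducible GTPase, at 0.208. Mug2 had 114 and 118 CPM in HACY and 28.7 and 27.0 in CCL4, and Cd72 had 10.7 and 11.5 against 2.17 and 2.07. Reads of Mug2 and Gvin1 may be shared with near copies. Among the members, Hrg was at 0.145, Plg at 0.509 and F10, the farthest, at 1.80. The chains themselves were at 0.145 (Fgb), 0.2695 (Fgg) and 0.315 (Fga). Fgg and Fga thus lay farther from the mean of the chains than any of the genes named as nearest. With 4 libraries such likeness rests mostly on the gap between the groups.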

How the data were processed

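RNA of sorted cells from 2 HACY and 2 CCL4 samples was made into stranded paired-end mRNA libraries, per the labels' protocols. Each deposited table gives a raw count per gene, per the file headers, and an FPKM computed by the authors. Trimmomatic, HISAT2, Cufflinks, HTSeq, DESeq and the build mm10 are named, without versions, per the submitters' processing notes. The sources used here name neither the annotation nor the strand setting.

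Counts were fitted with edgeR 4.0.16 (R 4.3.3): filterByExpr (minimum count 10, minimum total 15), TMM scaling, and a robust two-sided quasi-likelihood test with treatment alone, adjusted by Benjamini-Hochberg over 13428 genes at a threshold of 0.05. A gene was called where it passed. The common dispersion was 0.0272. On simulated counts the test recovered 8%, 66%, 100% and 96% of changes of 1.5-, 2-, 4- and 8-fold (13417 genes). It made 143 calls, of which 8 were false. The simulation gave every gene the common dispersion, so its rates do not cover genes whose replicates vary more. Shares and ratios were compared by exact permutation. Replicates differed beyond sampling noise (chi-square per degree of freedom 19.6 and 35.5). Locations are from GENCODE M21. The 27 rows with date-like names, at most 0.200% of counts, were never named.

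The members and all lists were chosen with earlier results of these data known. Named were all members, every called gene of each list and up to 4 others with the smallest p, the 6 genes most like fibrinogen and the neighbours of the cluster. F7 and the neighbours of F10 and Hrg were added after their values were seen. A few genes and a motif are not reported here. Other settings were 3 scalings (library size alone, upper quartile, RLE), DESeq2 1.42.0, limma 3.58.1 (voom, and log2 FPKM with pseudocounts of 1 and 0.1), other filters, a replicate block and each library left out. The fit of the FPKM used genes with a mean of at least 0.5 unless stated.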

Additional observations from a re-analysis of the deposited data

How the results depend on the processing

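Of the 150 member estimates under other settings, 136 kept their direction and side of the threshold and 14 lost the call, with no direction changed. By every setting but 4, 9 members were called higher. It was 8 with limma on log2(FPKM + 0.1), where F5 had an adjusted p of 0.0504, and 8 without CCL4 replicate 1. It was 6 without HACY replicate 2. With limma on log2(FPKM + 1) and no filter it was 0 (adjusted p 0.0575 to 0.303), a fit in which 1 of 16368 genes was called; the cause was not tested. With 1 library left out, the number of members called higher ranged from 6 to 9 and that of all genes from 629 to 3047. All genes split into 1100 higher and 476 lower by TMM, 925 and 614 by upper-quartile scaling, 856 and 1355 by library size alone, and 675 and 648 by limma on log2(FPKM + 1). Library size alone put the median of all genes at -0.18 and that of the members at 1.44.

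Direction changed in 8 estimates of uncalled genes; the cause was not tested. With 1 library left out, F13a1 ranged from -1.78 to 0.48 (0.48 without CCL4 replicate 2), Klkb1 from -0.38 to 0.13 (0.011 without HACY replicate 1, 0.13 without CCL4 replicate 1), Procr from -0.29 to 1.00 (-0.29 without CCL4 replicate 1), Tfpi2 from -0.57 to 0.37 (0.37 without HACY replicate 1, 0.29 without CCL4 replicate 1), Plat from -0.095 to 0.90 (-0.095 without HACY replicate 2) and F7 from -0.15 to 0.038 (0.038 without HACY replicate 2). With replicate number as a block, 1224 genes were called (893 higher, 331 lower), the 9 members among them. Deviations of same-numbered libraries correlated at -0.0989 over all tested genes and at 0.425 over the 10 members, and nothing in the labels ties equal numbers to 1 animal or batch, so the numbers are not taken to pair the samples. The depth leaves F9 at 142 to 497 counts a library, and changes under 2-fold were recovered poorly in simulation.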
